A study of Danio rerio with 12 samples.

Results

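The genes described here are 43 components of the signalling route that links Toll-like and tumour necrosis factor receptors to the transcription factor NF-kB, picked by gene symbol from a table of 31263 zebrafish and transgene entries. All 43 had an entry of their own. Of these, 24 passed the filter on low counts and were tested, and 19 were too rarely counted to be tested. Messenger RNA was counted near its poly(A) tail in 12 libraries of GFP-positive cells, sorted from trunks of zebrafish larvae that carry mpx:GFP, a reporter under control of the myeloperoxidase promoter, which is active in neutrophils. Larvae in the injured AMD3100 group had the spinal cord cut at 3 days post-fertilization and were kept from 4 to 8 hours post-injury in 25 uM AMD3100, a small molecule that blocks the chemokine receptor Cxcr4, given with 0.1% DMSO. The uninjured AMD3100 group was of the same age and received the inhibitor without a lesion. The injured DMSO group was lesioned and kept in the solvent alone over the same hours, and the uninjured DMSO group had the solvent and no lesion. The labels give no concentration of the solvent for the DMSO groups. Injured libraries of both treatments are labelled as 8 hours post-injury. Each group held 3 biological replicates of 2500 to 4800 cells. All 4 groups carry the transgene, and only cells sorted as GFP-positive were analysed here.

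In the canonical route, ligand-bound receptors recruit adaptors such as Myd88, Tirap and Tradd, which assemble kinases of the IRAK and RIP families with ubiquitin ligases of the TRAF and cIAP families. The ubiquitin chains they build activate the kinase TAK1 and the IkB kinase complex. IkB proteins, which hold NF-kB dimers in the cytoplasm, are then degraded, and the freed Rel proteins switch on inflammatory and survival genes. Several inhibitors of the route, among them IkB proteins and A20 with its partners, are themselves NF-kB targets in mammals and act as negative feedback. In neutrophils the route is known for driving cytokine production and delaying cell death.

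Totals ranged from 655451 to 12173133 counts per library, with injured AMD3100 replicate 1 the shallowest. That library stood apart on the first principal component, at -114.4 against a range of -33.0 to 39.9 for the other 11. Its transgene level was also low, with EGFP at 397 CPM before TMM scaling against 1326 to 1935 CPM in the other 11. Among 12 neutrophil markers found of 14 listed, including mpx, lyz and npsn, the summed level was 18877 to 30863 CPM in injured AMD3100 and 47133 to 62572 CPM in uninjured AMD3100. It was 18853 to 25761 CPM in injured DMSO and 41973 to 55665 CPM in uninjured DMSO. CPM are library-size-scaled counts of the tested entries, with TMM factors that adjust for composition. Much of the sum came from npsn and lyz. The defining markers mpx, lyz and npsn were counted in every library. Not all markers on the list were lower: mmp9 was at 1823 to 3856 CPM in injured AMD3100 and 541 to 1258 CPM in uninjured AMD3100. In DMSO mmp9 was at 2153 to 3070 CPM in injured and 783 to 1058 CPM in uninjured libraries. The level of cxcr1 was 63.4 to 81.7 CPM in injured DMSO and 22.0 to 53.9 CPM in uninjured DMSO. In AMD3100 cxcr1 overlapped, at 62.5 to 84.1 CPM in injured and 22.6 to 73.3 CPM in uninjured libraries. For any of these sums, in bulk samples, fewer cells of a type and less RNA per cell cannot be told apart. Markers of macrophages, which also use this route, summed to 254 to 296 CPM in injured AMD3100 and 161 to 192 CPM in uninjured AMD3100, without overlap. They summed to 167 to 210 CPM in injured DMSO and 169 to 213 CPM in uninjured DMSO. Of the 19 macrophage markers found of 21 listed, 4 to 11 were at 0 in a given library. The macrophage sum is mostly grna, ccl34a.4 and slc7a7, and other markers went the other way. In AMD3100, c1qb was at 0.287 to 1.40 CPM in injured and 4.89 to 8.26 CPM in uninjured libraries, and lgals3bpb at 0 to 2.95 CPM in injured and 9.44 to 21.3 CPM in uninjured ones. The defining macrophage marker mpeg1.1 was at 4.60 to 8.41 CPM in injured AMD3100 and 7.08 to 10.4 CPM in uninjured AMD3100. It was at 2.48 to 4.01 CPM in injured DMSO and 5.13 to 14.1 CPM in uninjured DMSO. The summed thrombocyte list, mostly f5, plek and fn1b, was higher in injured libraries without overlap, at 714 to 943 CPM in injured AMD3100 and 370 to 386 CPM in uninjured AMD3100. In DMSO they summed to 835 to 1371 CPM in injured and 394 to 547 CPM in uninjured libraries. Its defining markers were near 0, with itga2b at most 1.01 CPM in injured and 5.13 CPM in uninjured libraries. Lymphoid markers, mostly ccr9a and ikzf1, summed to 216 to 608 CPM in injured AMD3100 and 154 to 190 CPM in uninjured AMD3100. They summed to 264 to 327 CPM in injured DMSO and 135 to 166 CPM in uninjured DMSO, while rag1, rag2, lck and cd79b were at or near 0. Skeletal muscle markers summed to 1496 to 14375 CPM in injured AMD3100 and 15366 to 53938 CPM in uninjured AMD3100. In DMSO they summed to 924 to 10341 CPM in injured and 2132 to 25982 CPM in uninjured libraries. In uninjured AMD3100 replicate 3 the muscle sum of 53938 CPM exceeded the neutrophil sum of 49818 CPM. Mitochondrially encoded genes held 14.0% to 27.7% of counts in injured AMD3100 and 17.8% to 21.3% in uninjured AMD3100, and 19.04% to 26.8% in injured DMSO and 29.8% to 32.01% in uninjured DMSO. The part of these differences in the results that follow was not tested.

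A small set of members was higher after injury. With both treatments averaged, birc2, tnip1, nfkbiab and nfkbie rose in injured libraries, by 2.77-fold, 2.59-fold, 1.82-fold and 2.03-fold. By role they are 1 of 2 tested ubiquitin ligases, 1 of 2 tested ubiquitin-editing inhibitors and 2 of 3 tested IkB genes. These are 4 of the 24 tested members, with none lower, where 16% of all 8453 tested entries were called, 7.97% higher and 8.01% lower. The threshold was an adjusted p under 0.05, by Benjamini and Hochberg's method over all tested entries, in edgeR's quasi-likelihood test. In the separate comparisons, 2 of 24 members rose and none fell with injury in AMD3100, where 5.42% of all entries were called, 3% higher and 2.41% lower. Likewise 2 of 24 rose and none fell with injury in DMSO, where 5.19% were called, 2.86% higher and 2.33% lower. In both cases the members were birc2 and tnip1. Injured and uninjured libraries were apart, with injured higher, for 6 of 24 members in AMD3100 (10.5% of all entries), 6 of 24 in DMSO (15.9%) and 3 of 24 over both (4.73%). A gene counted in 1 group alone could pass the filter, so these shares describe the 24 and not the 43.

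The member with the highest CPM was birc2 (ENSDARG00000044619), which encodes cIAP1, a ubiquitin ligase that modifies RIP kinases at tumour necrosis factor receptors and limits cell death. It was at 777, 878 and 626 CPM in injured AMD3100 replicates 1 to 3, against 265, 306 and 291 CPM in uninjured AMD3100. In DMSO it was at 614, 702 and 789 CPM in injured libraries, against 224, 253 and 248 CPM in uninjured ones. The lowest of the 6 injured libraries exceeded the highest of the 6 uninjured ones. The averaged log2 fold change was 1.47 (SE 0.165, 95% interval 1.09 to 1.85, adjusted p = 5.84e-05, higher in 6 of 6 injured libraries). It was 1.40 in AMD3100 (SE 0.233, adjusted p = 0.00352) and 1.54 in DMSO (SE 0.234, adjusted p = 0.00195). The call for birc2 held in each of these comparisons with any single library left out, with adjusted p of at most 0.0247. Within groups its coefficient of variation was 6.49% to 16.6%. Its share of the summed CPM of all 43 members was 45.9% to 49.6% in injured AMD3100 and 29.4% to 33.0% in uninjured AMD3100. It was 43.7% to 49.3% in injured DMSO and 24.6% to 27.4% in uninjured DMSO. Without birc2, the members summed to 737 to 892 CPM in injured AMD3100 and 620 to 635 CPM in uninjured AMD3100. That sum was 793 to 860 CPM in injured DMSO and 643 to 773 CPM in uninjured DMSO, so it did not overlap in either treatment. It still holds tnip1 and nfkbiab, which averaged 99.2 and 162 CPM in injured DMSO and 41.9 and 90.3 CPM in uninjured DMSO. Some members had lower means after injury, among them rel, which averaged 29.0 CPM in injured DMSO and 44.9 CPM in uninjured DMSO. In AMD3100 rel averaged 28.6 CPM in injured and 45.8 CPM in uninjured libraries. Its groups overlapped in both treatments, and it did not pass the test. The sum therefore does not show a rise of the remaining members.

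**Figure D1:**
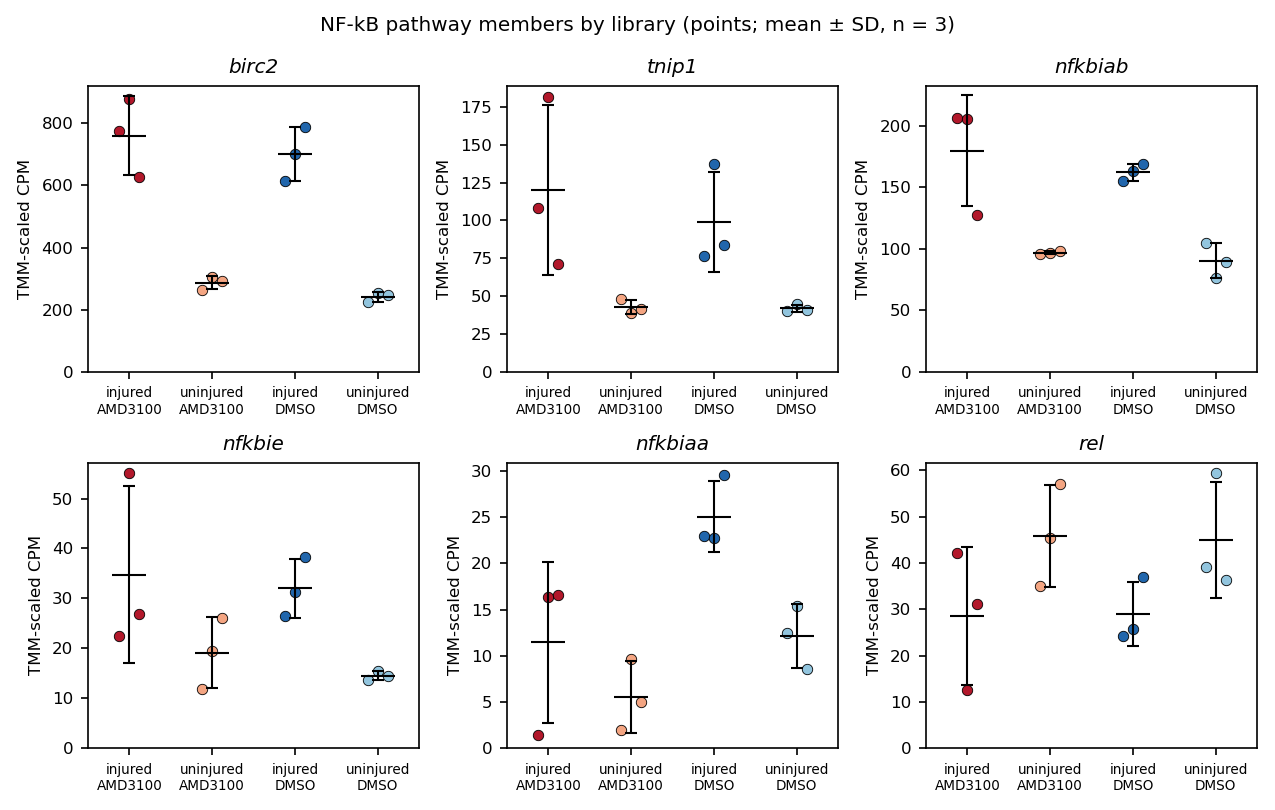
TMM-scaled CPM of 6 members in each library (points), with the mean and SD of the 3 replicates per group (bars). For birc2, tnip1 and nfkbiab every injured library lies above every uninjured one, while nfkbie, nfkbiaa and rel overlap between injury states in at least 1 treatment.

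Second in the size of its averaged rise was tnip1 (ENSDARG00000015653), which encodes ABIN1, a ubiquitin-binding partner of A20 that restrains NF-kB signalling in mammals. Its level was 108, 182 and 71.1 CPM in injured AMD3100 replicates 1 to 3, against 47.9, 38.7 and 41.8 CPM in uninjured AMD3100. In DMSO the level was 76.7, 137 and 83.8 CPM in injured libraries, against 40.3, 44.7 and 40.9 CPM in uninjured ones. The uninjured libraries lay close together, with coefficients of variation of 10.9% in AMD3100 and 5.70% in DMSO, while those of the injured ones were 46.8% and 33.3% in the same order. No injured library overlapped an uninjured one. Averaged over treatments the log2 fold change was 1.37 (SE 0.237, adjusted p = 0.00127), a call that held with any library left out. In AMD3100 alone it was 1.497 (SE 0.335, adjusted p = 0.0181), and the call was lost when injured AMD3100 replicate 2, or either replicate 2 or 3 of uninjured AMD3100, was left out (adjusted p = 0.0806 to 0.0945). That call was lost as well when only the 2 AMD3100 groups were fitted (adjusted p = 0.07885). In DMSO alone the log2 fold change was 1.25 (SE 0.336, adjusted p = 0.0440). The call in DMSO was lost without any DMSO library or any uninjured AMD3100 library (adjusted p = 0.0616 to 0.244), and with RLE or upper-quartile scaling (adjusted p = 0.0523 and 0.0574). It was also lost when every library was thinned to the depth of the shallowest (adjusted p = 0.180).

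IkB proteins bind Rel dimers and keep them out of the nucleus. Of the 6 listed, nfkbiaa, nfkbiab and nfkbie were tested, and all 3 had positive log2 fold changes in both injury comparisons. The IkB-alpha gene nfkbiab (ENSDARG00000007693) was at 206, 205 and 128 CPM in injured AMD3100, against 95.4, 96.7 and 98.3 CPM in uninjured AMD3100. Its values in DMSO were 155, 163 and 168 CPM in injured libraries, against 105, 76.2 and 89.6 CPM in uninjured ones. Injured and uninjured libraries did not overlap in either treatment. The averaged log2 fold change was 0.86 (SE 0.176, 95% interval 0.46 to 1.27, adjusted p = 0.00386), and that call held with any library left out. Taken singly, neither comparison passed the threshold, at 0.89 in AMD3100 (adjusted p = 0.0506) and 0.84 in DMSO (adjusted p = 0.0647). DESeq2 called both (adjusted p = 0.00899 and 0.0316). Of 12 alternative settings, DESeq2 among them, 6 called nfkbiab in AMD3100 and 4 in DMSO. With a library left out, 1 of 12 fits called it in AMD3100 and 2 of 12 in DMSO.

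The IkB-epsilon gene nfkbie (ENSDARG00000068367) was at 22.4, 55.0 and 26.8 CPM in injured AMD3100, against 11.8, 19.5 and 26.0 CPM in uninjured AMD3100. In DMSO it was at 26.6, 31.2 and 38.3 CPM in injured libraries, against 13.6, 15.4 and 14.5 CPM in uninjured ones. The groups overlapped in AMD3100 and were apart in DMSO. Averaged, nfkbie rose by 1.02 on the log2 scale (SE 0.261, adjusted p = 0.0156), a call lost when every library was thinned to the depth of the shallowest (adjusted p = 0.0885). Neither single comparison passed, at 0.90 in AMD3100 (adjusted p = 0.175) and 1.15 in DMSO (adjusted p = 0.0942).

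The second IkB-alpha gene, nfkbiaa (ENSDARG00000005481), was added to the genes described in full after its values were seen. It was at 1.40, 16.4 and 16.5 CPM in injured AMD3100, against 2.02, 9.68 and 5.004 CPM in uninjured AMD3100. In DMSO its level was 22.9, 22.7 and 29.5 CPM in injured libraries, against 12.5, 15.4 and 8.54 CPM in uninjured ones. The value of injured AMD3100 replicate 1 rests on 1 count. The averaged injury difference of 1.12 (SE 0.381) did not pass, with an adjusted p of 0.0595. It passed without injured AMD3100 replicate 1 (1.297, adjusted p = 0.0103), without uninjured AMD3100 replicate 2 (1.47, adjusted p = 0.0316) and with DESeq2 (1.08, adjusted p = 0.0357). The remaining IkB genes were not tested. The IkB-beta gene nfkbib held 96 counts in all, with 59 in injured and 37 in uninjured libraries, and the nuclear IkB-zeta gene nfkbiz held 6.

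**Figure D2:**
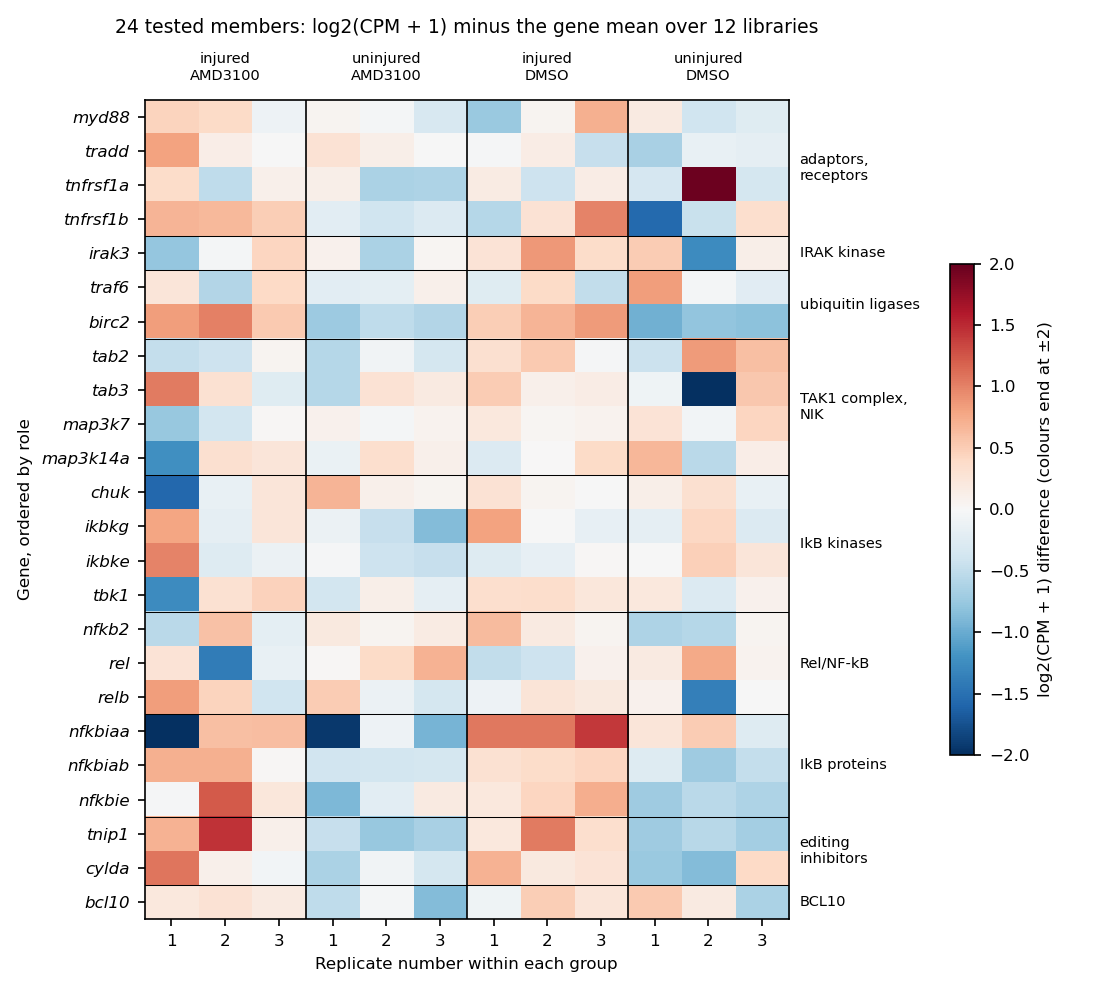
Each cell gives a tested member's log2(CPM + 1) in a library minus that gene's mean over the 12 libraries, with genes in rows ordered by role and libraries in columns by group; colours end at ±2. The rows of birc2, nfkbiab and tnip1 are red or near white in all injured columns and blue in all uninjured ones, and the darkest red cell is tnfrsf1a in uninjured DMSO replicate 2.

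Receptors and adaptors did not pass the test in any comparison. The tumour necrosis factor receptor gene tnfrsf1b averaged 13.3 ± 1.01 CPM in injured AMD3100 and 6.64 ± 0.507 CPM in uninjured AMD3100, without overlap (SD, n = 3 each). In DMSO it averaged 11.04 ± 6.11 CPM in injured and 6.25 ± 4.29 CPM in uninjured libraries, which overlapped. Its averaged log2 fold change of 0.86 had an adjusted p of 0.101, and 1.29 with an adjusted p of 0.0334 without uninjured DMSO replicate 3. The other receptor gene, tnfrsf1a, was at 63.1, 34.1 and 52.4 CPM in injured AMD3100, against 53.3, 31.1 and 31.5 CPM in uninjured AMD3100. It was at 54.8, 36.3 and 54.2 CPM in injured DMSO, against 193 CPM in uninjured DMSO replicate 2 and 38.0 CPM in the lower of the other two. Uninjured DMSO replicate 2 was the highest of the 12 libraries and raised its group mean to 89.7 ± 89.1 CPM (SD, n = 3). The death-domain adaptor gene tradd was at 122, 76.6 and 69.3 CPM in injured AMD3100, against 85.3, 76.0 and 69.0 CPM in uninjured AMD3100. It was at 68.4, 77.2 and 50.2 CPM in injured DMSO, against 44.1, 63.0 and 61.4 CPM in uninjured DMSO. Its averaged injury difference was 0.20 on the log2 scale (95% interval -0.25 to 0.66). The Toll receptor adaptor gene myd88 averaged 11.01 ± 2.32 CPM in injured AMD3100 and 8.40 ± 1.26 CPM in uninjured AMD3100. In DMSO it averaged 9.91 ± 5.22 CPM in injured and 8.13 ± 1.96 CPM in uninjured libraries (SD, n = 3 each), and its averaged log2 fold change was 0.33 (adjusted p = 0.479).

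The kinases that carry the signal to IkB did not pass the test either. The TAK1 gene map3k7 was at 56.1, 73.7 and 97.4 CPM in injured AMD3100, against 101, 93.4 and 101 CPM in uninjured AMD3100. It was at 111, 98.8 and 101 CPM in injured DMSO, against 116, 92.3 and 129 CPM in uninjured DMSO. Injured AMD3100 replicate 1 was the lowest library, and injured and uninjured DMSO libraries overlapped. The averaged log2 fold change was -0.24, with a 95% interval of -0.65 to 0.16 that leaves out a 2-fold change in either direction. The TAK1-binding adaptor gene tab2 was at 18.2, 19.1 and 26.8 CPM in injured AMD3100, against 17.2, 24.5 and 20.01 CPM in uninjured AMD3100. It was at 32.5, 37.8 and 25.3 CPM in injured DMSO, against 19.04, 47.6 and 39.6 CPM in uninjured DMSO, and its averaged injury difference was -0.04 (95% interval -0.59 to 0.51). The kinase gene tbk1, which acts on interferon regulatory factors and NF-kB, was at 15.4, 47.3 and 53.0 CPM in injured AMD3100, against 29.3, 41.8 and 33.5 CPM in uninjured AMD3100. It was at 48.8, 48.9 and 44.9 CPM in injured DMSO, against 44.6, 31.5 and 40.9 CPM in uninjured DMSO (averaged log2 fold change 0.25, adjusted p = 0.538). Among IkB kinase subunits, the scaffold gene ikbkg had an averaged log2 fold change of 0.53 (adjusted p = 0.224), the catalytic subunit gene chuk -0.24 (adjusted p = 0.588) and the related kinase gene ikbke 0.07 (adjusted p = 0.891). The other tested signalling members were tab3 (0.35), the NIK gene map3k14a (-0.09), the ubiquitin ligase gene traf6 (-0.08), bcl10 of the CARD-BCL10-MALT1 complex (0.47) and irak3 (0.50), a kinase-like brake on Toll signalling in mammals. Their adjusted p ranged from 0.273 to 0.882. The deubiquitinase gene cylda, which trims the activating chains, had an averaged log2 fold change of 0.68 (adjusted p = 0.155). Without uninjured DMSO replicate 3 it passed, at 1.06 (adjusted p = 0.0399).

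Of the 5 Rel and NF-kB subunit genes, rel, relb and nfkb2 were tested. The c-Rel gene rel was at 42.1, 12.5 and 31.1 CPM in injured AMD3100, against 35.1, 45.4 and 57.0 CPM in uninjured AMD3100. In DMSO it was at 24.2, 25.8 and 37.0 CPM in injured libraries, against 39.2, 59.3 and 36.3 CPM in uninjured ones. The groups overlapped in both treatments. Its averaged log2 fold change of -0.69 (SE 0.274) did not pass (adjusted p = 0.102), but did without injured AMD3100 replicate 1 (-0.82, adjusted p = 0.0436) and with limma-voom (-0.79, adjusted p = 0.0462). The genes of the noncanonical route, relb and nfkb2, had averaged log2 fold changes of 0.34 (adjusted p = 0.470) and 0.30 (adjusted p = 0.446). The subunit genes rela and nfkb1 held 11 and 6 counts in all 12 libraries. Counting at transcript ends depends on the annotated ends, and these low counts give no level of the protein.

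**Figure D3:**
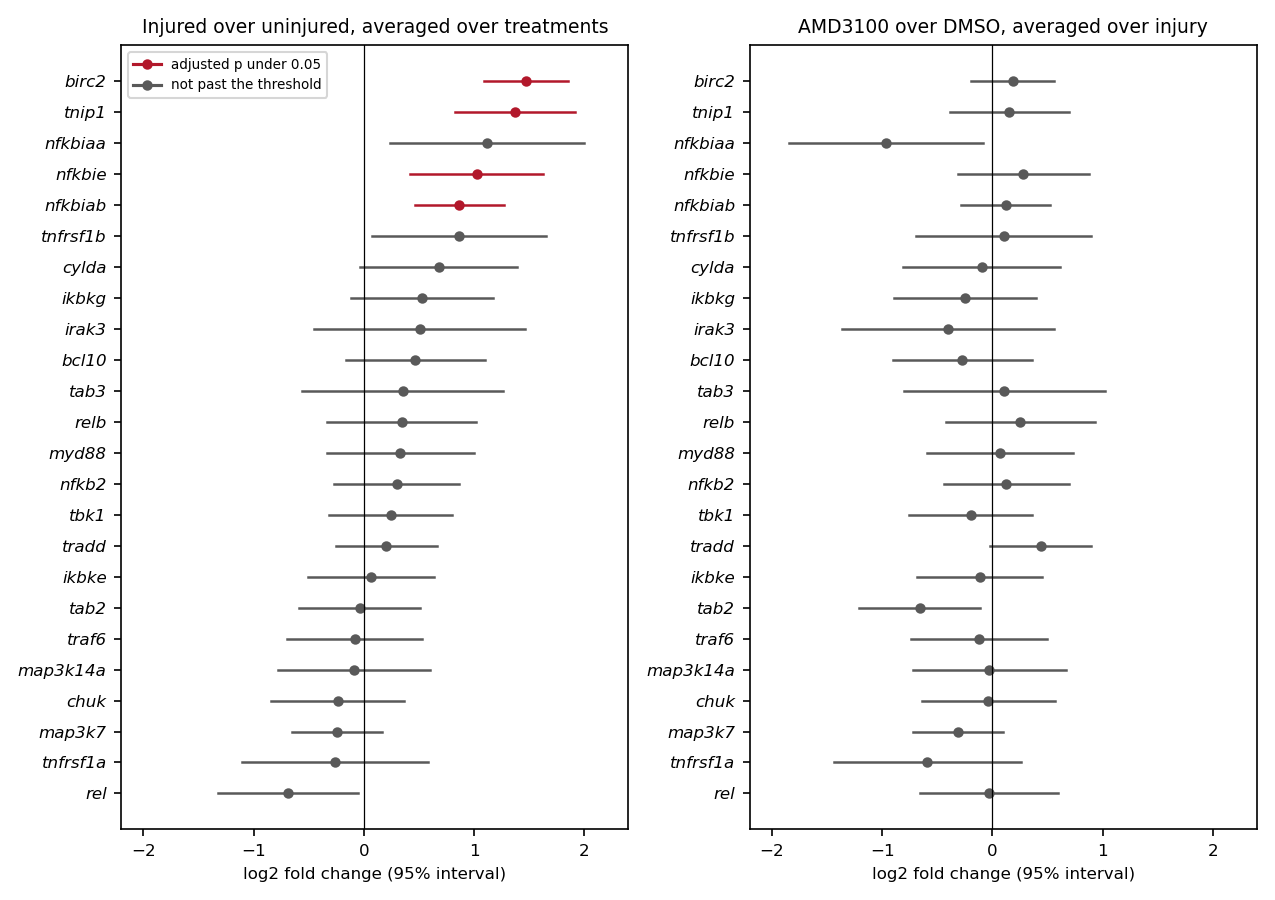
Log2 fold changes with 95% intervals of the 24 tested members, injured over uninjured averaged over treatments (left) and AMD3100 over DMSO averaged over injury states (right), with genes in the same order in both panels. On the left birc2, tnip1, nfkbie and nfkbiab pass the threshold (red); on the right none does, and nfkbiaa and tab2 lie farthest below 0.

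AMD3100 was set against DMSO at each injury state, and no member passed the test. AMD3100 called 0 of 24 members in injured larvae and 0 of 24 in uninjured larvae in edgeR's test, where 0% and 0.0118% of all entries were called. At an unadjusted p under 0.05 the counts were 0 and 2 members, where 5.51% and 5.12% of all entries reached it. DESeq2 and limma-voom called no member in either. Averaged over injury states, 0 of 24 were called, where 0.0118% of all entries were, and 3 reached an unadjusted p under 0.05, where 7.11% of entries did. The comparisons of injury and of AMD3100 share libraries, so each is given by its own values.

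The precision of these comparisons differed between members. For birc2 the AMD3100 difference was 0.11 in injured larvae (95% interval -0.41 to 0.64) and 0.25 in uninjured larvae (-0.28 to 0.78). For nfkbiab it was 0.14 (-0.42 to 0.71) and 0.10 (-0.47 to 0.67), and for tnip1 0.28 (-0.47 to 1.03) and 0.03 (-0.74 to 0.80). Averaged over injury states, the intervals of 19 of 24 members lay wholly within a 2-fold change in either direction. In injured larvae alone 7 did, and in uninjured larvae alone 6 did. For the rest, a 2-fold change in at least 1 direction lay within the interval.

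A pair of members had the lowest unadjusted p in the averaged AMD3100 comparison. The adaptor gene tab2 had a log2 fold change of -0.66 (SE 0.239, adjusted p = 0.632), with -0.55 in injured and -0.77 in uninjured larvae. The IkB-alpha gene nfkbiaa had -0.96 (SE 0.381, adjusted p = 0.687), with -0.93 in injured and -0.99 in uninjured larvae. All 3 injured AMD3100 libraries lay below all 3 injured DMSO libraries for nfkbiaa, where 5.67% of all entries were lower without overlap. The same held for map3k7, at -0.43 (adjusted p = 0.930). In uninjured larvae, birc2, nfkb2 and tradd lay wholly above their DMSO values and ikbke wholly below, where 6.91% and 6.02% of entries did so, and none of the 4 passed the test. The difference of -1.20 for tnfrsf1a in uninjured larvae (adjusted p = 0.959) was 0.0012 without uninjured DMSO replicate 2.

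Whether AMD3100 altered the response to injury was tested by the interaction. It called 0 of 24 members and 0% of all entries in edgeR's test, with 0 members at an unadjusted p under 0.05, where 3.13% of entries reached it, and no member by DESeq2 or limma-voom. For birc2 the injury effect in AMD3100 minus that in DMSO was -0.14 (95% interval -0.88 to 0.61), for nfkbiab 0.04 (-0.76 to 0.85) and for tnip1 0.25 (-0.83 to 1.33). Only 3 of the 24 interaction intervals lay wholly within a 2-fold change in either direction, and the widest, of irak3, had a half-width of 1.93. The largest differences in either direction were of tnfrsf1a, at 1.22 (95% interval -0.48 to 2.91), and nfkb2, at -0.69 (-1.82 to 0.45). That of tnfrsf1a includes uninjured DMSO replicate 2, its highest library, without which its AMD3100 difference in uninjured larvae was 0.0012. In the 2 injury comparisons, which share no library, 15 of the 24 members were positive in both, 3 negative in both and 6 of opposite sign. The median log2 fold change of the members was 0.35 in AMD3100 and 0.29 in DMSO, beside -0.07 and -0.02 over all tested entries. The AMD3100 median was 0.62 without injured AMD3100 replicate 3 and 0.60 without uninjured AMD3100 replicate 1, and 0.53 after thinning. Without injured AMD3100 replicate 1 it was 0.25.

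**Figure D4:**
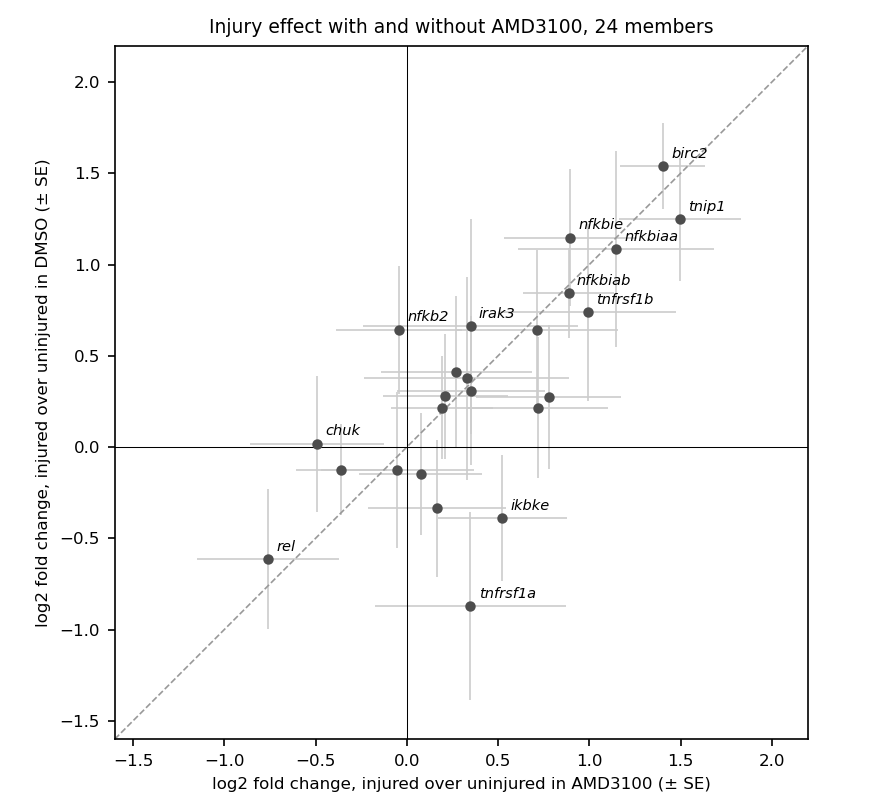
Log2 fold change of injury in AMD3100 (horizontal) against that in DMSO (vertical) for the 24 tested members, with standard errors as grey bars and equality as a dashed line. birc2, tnip1, the 3 IkB genes and tnfrsf1b lie to the upper right, rel to the lower left, and tnfrsf1a and ikbke have opposite signs in the 2 treatments. For tnfrsf1a the uninjured DMSO mean is raised by replicate 2, its highest library.

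The 19 untested members held 0 to 96 counts each over 66507094 counts. They were tirap, irak1, irak4, ripk1l, ripk2, traf2a, traf2b, traf3, tab1, ikbkb, nfkb1, rela, nfkbib, nfkbiz, bcl3, tnfaip3, tnip2, cyldb and malt1. The deubiquitinase gene cyldb had no count in any library, which allows a level of up to 0.0451 CPM over all 12, from a limit of 3 counts and for counting error only. Its duplicate cylda was counted in every library, and reads that match both copies cannot be assigned from these data. A few of these genes were counted mostly in injured libraries. The nuclear IkB relative bcl3, which binds p50 and p52 dimers, had 8, 4 and 4 counts in injured AMD3100, against 0, 1 and 0 in uninjured AMD3100. It had 0, 6 and 3 counts in injured DMSO, against 0, 0 and 0 in uninjured DMSO. The 8 counts were in injured AMD3100 replicate 1, the shallowest library, where they made 11.2 CPM. The injured AMD3100 group averaged 4.04 CPM (SD 6.22). Without the filter on low counts, edgeR called bcl3 in the averaged injury comparison (adjusted p = 0.0228), and that fit rests on 25 counts in injured and 1 in uninjured libraries.

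The A20 gene tnfaip3, the partner of ABIN1, held 11 counts in injured libraries and 0 in uninjured ones, and the kinase gene irak1 also held 11 and 0. The inhibitor gene tnip2 held 52 and 3. Of the injured libraries, only 3 had a count of tnip2, 3 a count of tnfaip3 and 4 a count of irak1. For scale, injured libraries held 37584936 counts and uninjured libraries 28922158. Without the filter none of these 3 genes passed in the averaged comparison (adjusted p = 0.261, 0.219 and 0.104). Of the other untested genes, ripk1l held 26 counts in injured and 9 in uninjured libraries, traf2a 17 and 3, tab1 6 and 27, tirap 38 and 22, irak4 14 and 16, and malt1 31 and 32. The rest, ripk2, traf2b, traf3, ikbkb, nfkb1, rela and nfkbiz, held 1 to 11 counts in all.

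Other genes of the route were read from 5 lists. Of 31 Toll-like receptors and other sensors, 24 were found and 6 tested. With treatments averaged, 1 rose and 1 fell, where 7.97% of all entries were higher and 8.01% lower. The flagellin receptor gene tlr5b averaged 372 CPM in injured AMD3100, where replicate 1 was highest at 862 CPM, and 13.4 CPM in uninjured AMD3100, and 142 CPM in injured DMSO and 9.53 CPM in uninjured DMSO (averaged log2 fold change 4.34, adjusted p = 5.61e-05). The receptor gene tlr18 averaged 0.484 CPM in injured AMD3100 and 5.85 CPM in uninjured AMD3100, and 0.341 CPM in injured DMSO and 2.06 CPM in uninjured DMSO (averaged log2 fold change -2.70, adjusted p = 0.00764). It was too rarely counted to be tested with the filter of 10 CPM or after thinning, where 2 of the list were tested. Of 72 further adaptors, kinases and ubiquitin proteins, 41 were tested, of which 5 rose and 3 fell, beside 7.97% and 8.01% of all entries. The largest rise was of card9, the adaptor that links lectin receptors to BCL10 in mammals. It averaged 40.7 CPM in injured AMD3100 and 15.1 CPM in uninjured AMD3100, and 34.9 CPM in injured DMSO and 11.6 CPM in uninjured DMSO (1.49, SE 0.209, adjusted p = 2.58e-04). The others that rose were trim8a (0.90), the Toll-interacting inhibitor gene tollip (0.62), the ubiquitin-conjugating enzyme gene ube2l3a (0.58) and skp1 (0.54), part of the ligase that tags IkB for degradation. Those that fell were the kinase gene map2k6 (-1.21), the IRAK-binding ligase gene peli1b (-1.08) and map3k5 (-0.96). Adjusted p for these 7 ranged from 0.0138 to 0.0479. With a library left out, 1 to 8 of this list rose and 1 to 3 fell; without any one uninjured library, or injured DMSO library, or injured AMD3100 replicate 2, at most 3 rose, and without injured AMD3100 replicate 1, 8 rose.

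Genes listed as NF-kB targets made up the last large list. Like the other lists, it was written with earlier results of these data known, so its counts are no independent support. Of 66 listed, 33 were tested, of which 12 rose and 1 fell with injury averaged over treatments, where 7.97% of all entries were higher and 8.01% lower. The matrix protease gene mmp9 (log2 fold change 1.60, adjusted p = 4.52e-04), the heme oxygenase gene hmox1a (2.21, adjusted p = 8.01e-04), the cytokine feedback gene socs3a (1.04, adjusted p = 0.00700) and the survival gene bcl2l1 (1.62, adjusted p = 0.0153) were among those that rose. The chemokine genes ccl38.6 (4.03, adjusted p = 3.67e-04) and cxcl8a (2.39, adjusted p = 0.0226) rose and ccl34b.1 fell (-1.80, adjusted p = 0.0120). The 2 that rose were rarely counted. Each uninjured library held 0 to 7 counts of ccl38.6 and each injured one 2 to 170. For cxcl8a the ranges were 0 to 3 and 6 to 23 counts. The tumour necrosis factor gene tnfb averaged 168 CPM in injured AMD3100 and 99.1 CPM in uninjured AMD3100, and 312 CPM in injured DMSO and 99.2 CPM in uninjured DMSO (1.21, adjusted p = 0.0263). Its relative tnfa, not tested, had 1, 4 and 5 counts in injured AMD3100 and 2, 2 and 1 in injured DMSO, against 0 in all 6 uninjured libraries. The interleukin gene il1b did not pass (0.50, adjusted p = 0.0685). Many of these genes have other regulators as well, and mmp9 is also in the neutrophil marker list.

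Of 14 interferon regulatory factors, 7 were tested. With treatments averaged irf1b rose (3.21, adjusted p = 0.00643) and irf7 fell (-0.83, adjusted p = 0.0195), beside 7.97% and 8.01% of all entries. The gene irf1b is also counted among the target genes. It was too rarely counted to be tested with the filter of 10 CPM or after thinning. The call for irf7 was lost without uninjured AMD3100 replicate 1, injured DMSO replicate 2 or uninjured DMSO replicate 1. The factor gene irf8 did not pass (-0.54, adjusted p = 0.460), nor did the receptor-associated gene traf1 (-0.29, adjusted p = 0.609). The kinase gene map3k8 was not tested, with 0, 4 and 3 counts in injured AMD3100 and 1, 4 and 0 in injured DMSO, against 0 in all 6 uninjured libraries. Of 14 listed cytokine receptors upstream of NF-kB, 2 were tested and neither passed. AMD3100 called none of the tested genes of these 5 lists in injured or uninjured larvae, nor did the interaction, in edgeR's test. Without injured AMD3100 replicate 3, 2 target genes were lower with AMD3100 in injured larvae and 1 had a negative interaction. Without the filter on low counts, 1 sensor gene was higher and 1 target gene lower with AMD3100 in injured larvae, and 1 target gene had a negative interaction. DESeq2 and limma-voom called none of the 5 lists in these comparisons.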

How the data were processed

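Per the labels' protocols, an adapted CEL-seq method was used, which reads transcript ends. The values the authors deposited are raw counts of reads per gene entry, in 1 table of 31351 entries by 12 libraries. The submitters' processing notes name BWA, the build GRCz11 and DESeq2 1.38 with no role given. The sources used here do not say whether molecular identifiers were collapsed. Gene positions and sequences are not used here. The 88 spike-in entries were left out. Joint entries of overlapping genes were kept apart. They hold 10 of the members, with 5 counts, all shared by irak3 and b2m.

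The models were fitted with edgeR 4.0.16 under R 4.3.3. filterByExpr by group (minimum count 10, minimum total 15) kept 8453 entries. TMM factors and a quasi-likelihood model with 1 coefficient per group were used on all 12 libraries, and 7 contrasts were adjusted over all entries. CPM use the totals of the kept entries. Standard errors come from the F statistic and 95% intervals use 8 residual degrees of freedom. Alternatives used limma 3.58.1 and DESeq2 1.42.0. The pipeline was tested on simulated data. Values in each library are given for members called in any contrast and for the 10 most abundant. They are also given for members with an unadjusted p under 0.05 in both single injury contrasts with the same sign. The same holds for such a p in either single AMD3100 contrast or the interaction. Exceptions are nfkbiaa, added after its values were seen, and tnfrsf1a, with a value in uninjured DMSO left out. Members, lists and this rule were chosen with earlier results of these data known. P-values measure the spread between libraries labelled as biological replicates. No pairing by replicate number was evident: deviations of same-numbered libraries correlated at -0.11 to 0.14, and those of different-numbered ones at -0.17 to 0.18. With 3 replicates per group, these correlations cannot exclude a weak pairing.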

Additional observations from a re-analysis of the deposited data

How the results depend on the processing

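No called member changed direction under any alternative. Among members with an unadjusted p under 0.05, followed one by one, tnfrsf1a under AMD3100 in uninjured larvae, which never passed the test, reversed to 0.00124 on the log2 scale without uninjured DMSO replicate 2 and -1.599 to 0.00124 over the left-out libraries. Members called with injury in DMSO numbered 2, against 1 with RLE factors, 1 with upper-quartile factors and 1 with thinned libraries. The number was 3 with DESeq2 or limma-voom and 4 when the 2 DMSO groups were fitted alone. It was also 4 with quality weights, a setting chosen after the data were seen. They numbered 1 to 3 with a library left out. Members called with injury in AMD3100 numbered 2, against 1 when only its own 2 groups were fitted, and 1 to 3 with a library left out. The number was 3 with RLE factors, DESeq2, limma-voom, the filter of 10 CPM or without mitochondrially encoded genes. The averaged injury comparison gave 4, and 3 to 6 under every alternative, 4 to 6 with a library left out. With the replicate number as a replicate block the counts were 2, 2 and 4, so it changed no member call. The AMD3100 and interaction comparisons gave 0 members under every setting run. Signs of uncalled members varied: with AMD3100 in injured larvae 14 of 24 were positive, and 10 with limma-voom or 16 with upper-quartile factors. Without marker genes of other cell types, also chosen after the data were seen, the counts were 2 in DMSO, 3 in AMD3100 and 4 averaged. Over all entries, 439 calls with injury in DMSO became 723 with DESeq2, 701 without the filter, 722 in the 2 groups alone, 226 after thinning and 951 with quality weights, and 163 to 659 with a library left out. The 458 in AMD3100 became 731, 714, 165 and 301 under the first 4 of these and 707 with limma-voom, and as few as 119 with a library left out. Averaged, 1351 became 751 after thinning. The AMD3100 comparisons called 105 entries in injured and 145 in uninjured larvae without the filter and the interaction 68, where DESeq2 called 1 in injured and 19 in uninjured larvae. Without injured AMD3100 replicate 3 they called 72 in injured larvae and 161 averaged. Of the NF-kB targets, 12 higher with injury averaged became 5 after thinning, 7 with a filter of 10 CPM and 8 to 13 with a library left out. The cause of these shifts was not tested. Depth limits the low members most: thinning left 18 of the 24 testable.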
